A study of Mus musculus with 4 samples.

Results

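The genes described here are the nuclear-encoded subunits of 3 assemblies of the mitochondrial respiratory chain: complex I, complex III and complex V. They were chosen by symbol alone, as every counted gene named Nduf followed by a subunit letter and number, Uqcr followed by a subunit name, or Atp5 followed by a subunit name, with pseudogenes and antisense genes left out. This rule gave 63 of 32285 counted genes, of which 38 carry a complex I name, 8 a complex III name and 17 a complex V name. All 63 had at least 1 unique molecular identifier (UMI, a tag that counts RNA molecules) in each library. The series measured RNA nucleus by nucleus, in droplets that tag the 3′ end of messages, in nuclei isolated from aortic tissue of mice with a CA1 knockin on an ApoE-/- background, a genotype that all groups share, also the controls. CA1 is carbonic anhydrase 1, which converts carbon dioxide to bicarbonate and back. Mice without ApoE are prone to atherosclerosis. The 4 groups had a single library apiece: mice without treatment (untreated), mice fed high-fat food (high-fat), mice fed high-fat food that received methoxazolamide (MTZ) once atherosclerosis was established (MTZ-after), and mice that received high-fat food and methoxazolamide simultaneously (MTZ-simultaneous). The series names MTZ as an inhibitor of CA1, and the labels used here give no age, duration or dose and do not say how many animals gave a library. With 1 library in a group there is no replicate check and no test between conditions. Ratios below are between libraries, and every interval is a 95% interval for counting error only.

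Complex I takes electrons from NADH and passes them to ubiquinone while pumping protons out of the matrix. Complex III passes electrons from ubiquinol to cytochrome c, and complex V, the ATP synthase, uses the returning protons to make ATP. Most subunits are encoded in the nucleus and translated in the cytosol, and a smaller set is encoded in mitochondrial DNA. Brown adipocytes are rich in mitochondria and carry Ucp1, which lets protons return without making ATP, and brown fat surrounds the thoracic aorta of mice.

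The promoters of these genes are shown because most members were lower in high-fat than in untreated, while the 3 genes for a single subunit of the ATP synthase differed among themselves. RefSeq windows from 250 bases before to 50 after the start site (build GRCm38.p6) were found for 52 members, and 11 had none, among them Atp5a1, Atp5f1, Atp5mpl, Ndufa2, Ndufa4l2, Ndufb9, Ndufs1, Uqcrb, Uqcrc2 and Uqcrq. The 120 bases before the start site are printed 5′ to 3′ on the gene's strand for 6 members. Capitals mark the NRF1-type core, which starts and ends with GCGC and is known to be bound by the factor NRF1, and AAGGTCA, the core known for the oestrogen-related receptors, each read on both strands. Atp5g1, Atp5g2 and Atp5g3 encode the same mature subunit c, the protein of the rotating ring, behind different targeting peptides. Their windows lie on the minus strand at chr11:96075632-96075751, chr15:102671048-102671167 and chr2:73911327-73911446. The first listed window of a gene was used, and other start sites were not examined. The printed stretch of Atp5g2 lies wholly inside the annotated gene span, chr15:102662864-102672352, and that of Atp5g1 partly inside its own.
Atp5g1: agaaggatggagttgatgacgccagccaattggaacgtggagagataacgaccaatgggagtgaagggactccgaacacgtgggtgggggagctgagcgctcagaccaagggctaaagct
Atp5g2: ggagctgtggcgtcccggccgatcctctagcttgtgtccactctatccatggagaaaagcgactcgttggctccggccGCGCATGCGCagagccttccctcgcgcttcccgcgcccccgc
Atp5g3: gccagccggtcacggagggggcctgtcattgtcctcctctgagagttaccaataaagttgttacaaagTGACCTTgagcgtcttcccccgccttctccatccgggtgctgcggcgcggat

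Atp5k (subunit e of the ATP synthase, chr5:108434400-108434519, minus strand), Ndufa11 (chr17:56717642-56717761, plus strand) and Ndufb4 (chr16:37654369-37654488, minus strand), both in the membrane arm of complex I, are shown as members whose window holds the NRF1-type letters. The stretches of Atp5k and Ndufb4 lie partly inside the annotated gene spans.
Atp5k: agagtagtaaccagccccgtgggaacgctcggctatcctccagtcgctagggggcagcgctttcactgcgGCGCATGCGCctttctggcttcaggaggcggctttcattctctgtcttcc
Ndufa11: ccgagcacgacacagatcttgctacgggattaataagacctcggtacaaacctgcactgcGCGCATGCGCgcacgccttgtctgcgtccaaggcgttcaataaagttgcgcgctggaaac
Ndufb4: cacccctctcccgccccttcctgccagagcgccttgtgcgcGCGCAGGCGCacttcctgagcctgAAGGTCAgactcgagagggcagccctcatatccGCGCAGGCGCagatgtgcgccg

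Over the whole 300-base windows, the NRF1-type core occurred in 13 of 52 members (25%), against 4.78% of all 27025 gene promoters in the table and 8.46% of the 13752 promoters of genes with at least 50 UMIs in these libraries. AAGATGGCG, the core known for YY1, occurred in 6 members (11.5%) against 2.52% of expressed genes, and AAGGTCA in 7 (13.5%) against 3.69%. CCGGAAG, the ETS-type core, occurred in 11 members (21.2%) against 15.0%, and CCAAT in 21 (40.4%) against 38.2%. GGGGCGGGG occurred in 8 members (15.4%) against 19.0%, and TATAAA in 6 (11.5%) against 8.51%. A match is a description of letters and shows no binding. The window of Atp5g1 holds neither capitalised motif in the printed stretch, Atp5g2 the first and Atp5g3 the second. Past its start site Atp5g3 also holds a match to the first.

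The deposited libraries held, in the order of the groups above, 69201159, 50358151, 31517272 and 37962370 UMIs from 22413, 38114, 28116 and 19335 nuclei, and 17845 to 35104 nuclei per library were kept. The median kept nucleus held 2033, 953, 826 and 1427 UMIs in that order. Car1, the mouse gene for CA1, was counted in every library at 63.4 to 151 UMIs per 1000000 (CPM), and Apoe at 8.87 to 10.9 CPM. Libraries shared 0.615 to 1.34% of the smaller library's cell barcodes. Clusters were made and named from the 4 libraries together. Those named from smooth muscle, endothelial and macrophage markers held nuclei of each library. So did those named from markers of tissue around the vessel such as brown and white fat. Chromaffin-like nuclei numbered 0 in high-fat, and hepatocyte-like nuclei 0 in untreated. Brown adipocyte-like nuclei made up 29.96% of the untreated library, against 0.422% for high-fat, 2.55% for MTZ-after and 3.10% for MTZ-simultaneous. These shares depended on the clustering: over the main and 5 other settings they ran from 17.9 to 42.8% for untreated, 0.387 to 2.56% for high-fat, 2.11 to 13.01% for MTZ-after and 1.79 to 9.97% for MTZ-simultaneous. Adrenal cortex-like nuclei made up 21.5% of MTZ-after and 0.0997 to 0.279% of the other libraries. Macrophage-like nuclei made up 52.2% of high-fat and 11.8 to 17.7% of the others. The high-fat share also depended on the clustering, and macrophage-like values below are from the main setting unless another is named. With each library centred before clustering, 4635 high-fat nuclei fell in a cluster led by Igkc, Lum and Spp1 that was left unnamed. The clusters named macrophage then held 5270, 635, 66 and 73 of the 35104 high-fat nuclei. In untreated the same clusters held 1612, 1169, 35 and 207 of 20773 nuclei. The high-fat share was thus well below 52.2% and much nearer to that of untreated. A summed level over all nuclei therefore mixes tissues in different shares, and fewer nuclei of a type and less RNA per nucleus cannot be told apart in it, so levels are also given within classes.

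Summed over all kept nuclei, the 63 members reached 2958 CPM for untreated and 1814 for high-fat. The MTZ-after library reached 2013 CPM and the MTZ-simultaneous library 2383. Untreated was highest, high-fat lowest, and both MTZ libraries lay between them. High-fat stood at 0.613 times untreated (0.608 to 0.618), MTZ-after at 1.11 times high-fat (1.10 to 1.12) and MTZ-simultaneous at 1.31 times high-fat (1.30 to 1.33). The last 2 ratios share the high-fat library. The 3 complexes kept nearly the same proportions: complex I names gave 51.0 to 53.8% of member UMIs, complex III names 13.4 to 14.2% and complex V names 32.0 to 34.8%.

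Calls of higher or lower were made where the CPM of a gene differed by 1.5-fold or more and at least 50 UMIs stood behind the larger value. In high-fat against untreated, 44 of the 63 members were called lower and 0 higher, where 14.2% of all 16361 genes with enough counts were called lower and 17.5% higher. The lower calls were 28 of 38 for complex I, 7 of 8 for complex III and 9 of 17 for complex V. The median log2 ratio over members was -0.69, against 0.07 over all genes with at least 10 UMIs in the pair. With factors of the TMM scaling, which shifts every log2 ratio by -0.13 here, 53 members were called lower and 0 higher, where all genes split into 12.9% higher and 17.4% lower. At 2-fold, 4 members were called lower and 0 higher, where 7.33% and 6.5% of genes were.

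In MTZ-after against high-fat, 1 member was called higher and 0 lower, where 21.4% of genes were called higher and 7.33% lower. The median log2 ratio was 0.15, against 0.08 over all genes. The TMM shift of -0.13 left 35 of 63 members above a ratio of 1, where scaling by the total left 47, and it left 0 members called. At 2-fold 0 members were called, where 13.7% of genes were called higher and 2.56% lower. In MTZ-simultaneous against high-fat, 21 members were called higher and 0 lower, where 16.5% of genes were called higher and 6.91% lower. The median was 0.47, against 0.10 over all genes. With the TMM shift of -0.13, 10 members were called higher and 59 of 63 lay above 1, where scaling by the total left 62. At 2-fold 0 members were called, where 8.02% of genes were called higher and 2.41% lower.

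The core subunits of complex I carry its flavin and iron-sulphur clusters. Of these, 4 of 7 were called lower in high-fat against untreated, where 14.2% of all genes were. Ndufs1, the large iron-sulphur subunit, stood at 152 CPM for untreated, 78.7 for high-fat, 81.8 for MTZ-after and 93.4 for MTZ-simultaneous. High-fat was at 0.518 times untreated (0.498 to 0.538), and the MTZ libraries stayed close to high-fat. Ndufv1, which binds NADH and flavin, stood at 27.0, 16.0, 20 and 22.5 CPM in the same order, and its partner Ndufv2 at 88.4, 50.5, 53.8 and 58.2. For both, untreated was highest and high-fat lowest. Ndufs7, which holds the last iron-sulphur cluster, stood at 19.1, 13.4, 14.4 and 21.0 CPM, and was the only core subunit called higher in MTZ-simultaneous (1.57 times high-fat, 1.41 to 1.75). Ndufs8 stood at 6.30, 5.00, 6.12 and 7.18 CPM and passed no call.

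Ndufs3, another core subunit, was called lower over all nuclei and not in any vascular class. Over all nuclei it stood at 94.8 CPM for untreated, 57.2 for high-fat, 52.7 for MTZ-after and 53.4 for MTZ-simultaneous. Within macrophage-like nuclei it stood at 49.6, 52.9, 52.6 and 49.9 CPM, and within smooth muscle-like nuclei at 53.1, 52.1, 44.5 and 49.4. In endothelial-like nuclei high-fat was higher than untreated (57.2 against 40.5 CPM, ratio 1.41, 1.09 to 1.82). In brown adipocyte-like nuclei of untreated it stood at 140 CPM, which is 2.62 times the median of the other classes there.

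Accessory subunits stabilise complex I. In the matrix arm 7 of 9 and in the membrane arm 15 of 19 were called lower in high-fat, where 14.2% of all genes were. Ndufs4, at chromosome 13 with the longest gene span of the members (100464 bp) and known from human complex I deficiency, stood at 241 CPM for untreated, 138 for high-fat, 165 for MTZ-after and 144 for MTZ-simultaneous. It was lower in high-fat (0.574, 0.557 to 0.591), and MTZ-simultaneous was near high-fat. Ndufb9 stood at 41.2, 18.8, 21.1 and 27.1 CPM, Ndufb6 at 19.4, 8.76, 11.01 and 13.6, and Ndufa5 at 19.2, 9.08, 11.1 and 17.2. These 3 had the lowest ratios by the interval bound nearest to 1 in high-fat against untreated (0.456, 0.453 and 0.473). Ndufa5 was also the highest in MTZ-simultaneous against high-fat (1.90, 1.67 to 2.15), followed by Ndufb10 (1.83, 1.65 to 2.04) and Ndufb11 (1.82, 1.603 to 2.06). In MTZ-simultaneous against high-fat, 9 of 19 membrane-arm members and 2 of 9 matrix-arm members were called higher, where 16.5% of all genes were; whether the arms differ was not tested.

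Ndufab1, which is also the acyl carrier protein of mitochondria, stood at 51.5 CPM for untreated, 26.5 for high-fat, 29.3 for MTZ-after and 35.7 for MTZ-simultaneous. Ndufa10, of the membrane arm, stood at 57.0, 35.9, 43.0 and 44.6 CPM, with untreated above the rest. Ndufa2 was among the 3 members that were not lower in high-fat (22.8 CPM in untreated, 24.3 in high-fat, 23.6 and 31.9 in the MTZ libraries). Ndufa4 has a complex I name but is known as a subunit of complex IV, and it stood at 81.3, 46.1, 60.04 and 73.1 CPM. It was above high-fat in both MTZ libraries, by 1.30 times (1.22 to 1.39) and 1.58 times (1.496 to 1.68). Ndufa4l2, a paralogue known to be induced by hypoxia, had 100 UMIs in all and is the least counted member.

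**Figure D1:**
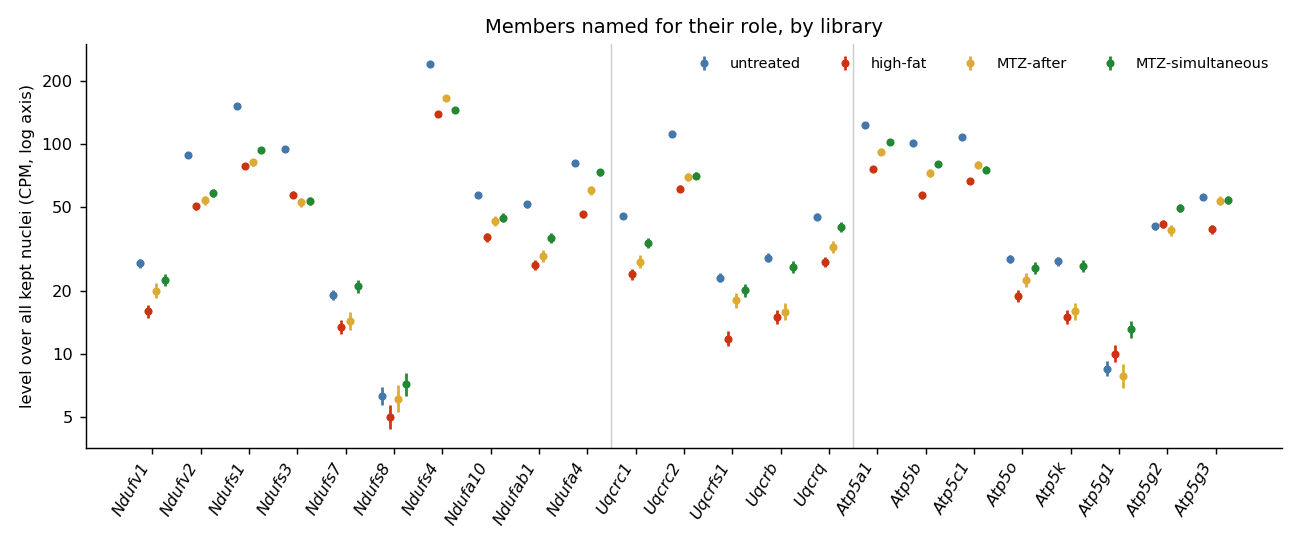
The plot gives the level over all kept nuclei (CPM, log axis) of 23 members named for their role, with 1 point per library and bars for the 95% Poisson counting interval; vertical lines separate complex I, III and V names. Untreated is the highest library for every gene shown except Ndufs7, Ndufs8, Atp5g1 and Atp5g2, which are highest in MTZ-simultaneous.

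In complex III, all 3 genes of the core list were called lower in high-fat, where 14.2% of all genes were. Uqcrc1 and Uqcrc2, the core proteins that face the matrix, stood at 45.3 and 112 CPM for untreated and at 23.97 and 61.1 for high-fat. They were somewhat higher with MTZ, at 27.5 and 69.5 CPM when given after and 33.6 and 70.5 when given simultaneously. Uqcrfs1, the Rieske iron-sulphur protein, stood at 23.1 CPM for untreated, 11.8 for high-fat, 17.9 for MTZ-after and 20.1 for MTZ-simultaneous. Uqcrfs1 was the single member called higher in MTZ-after (1.52, 1.34 to 1.71), and it was also called higher in MTZ-simultaneous (1.70, 1.52 to 1.90). Uqcrb and Uqcrq, small subunits near the quinone sites, stood at 28.8 and 45.1 CPM for untreated and at 15.0 and 27.5 for high-fat. Given after, MTZ came with 15.9 and 32.4 CPM, and given simultaneously with 25.8 and 40.3.

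In complex V, 4 of the 5 genes of the catalytic head and central stalk were called lower in high-fat, where 14.2% of all genes were. Atp5b, the catalytic beta subunit, stood at 101 CPM for untreated, 56.9 for high-fat, 72.8 for MTZ-after and 80.2 for MTZ-simultaneous. Atp5a1, the alpha subunit, stood at 123, 76.2, 92.0 and 102 CPM, and Atp5c1, the gamma subunit of the central stalk, at 108, 66.4, 79.6 and 75.4. For each of these 3 genes high-fat was the lowest library. Atp5o, which links the head to the peripheral stalk, stood at 28.3, 18.8, 22.5 and 25.7 CPM. Atp5k stood at 27.5, 15.0, 15.9 and 26.3 CPM, so that MTZ-after was near high-fat and MTZ-simultaneous near untreated (1.75 times high-fat, 1.59 to 1.94).

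The 3 subunit c genes, whose promoter stretches are printed above, did not share a pattern. Of them, 0 of 3 were called lower in high-fat, where 14.2% of all genes were. Atp5g3 stood at 55.9 CPM for untreated, 39.2 for high-fat, 53.6 for MTZ-after and 54.0 for MTZ-simultaneous, so high-fat was low and the other libraries lay close together. Atp5g2 stood at 40.6, 41.7, 38.8 and 49.4 CPM, and high-fat over untreated was 1.03 (0.967 to 1.09). Atp5g1 stood at 8.49, 10.0, 7.86 and 13.1 CPM, and high-fat over untreated was 1.18 (1.04 to 1.34). Within classes the order changed: in macrophage-like nuclei Atp5g1 was called lower in high-fat (11.2 against 19.1 CPM, ratio 0.584, 0.471 to 0.726). Atp5g3 in macrophage-like nuclei stood at 39.8 CPM in untreated and 38.8 in high-fat. In fibroblast-like nuclei Atp5g2 stood at 28.5 CPM in untreated and 35.9 in high-fat (1.26, 1.04 to 1.53).

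**Figure D2:**
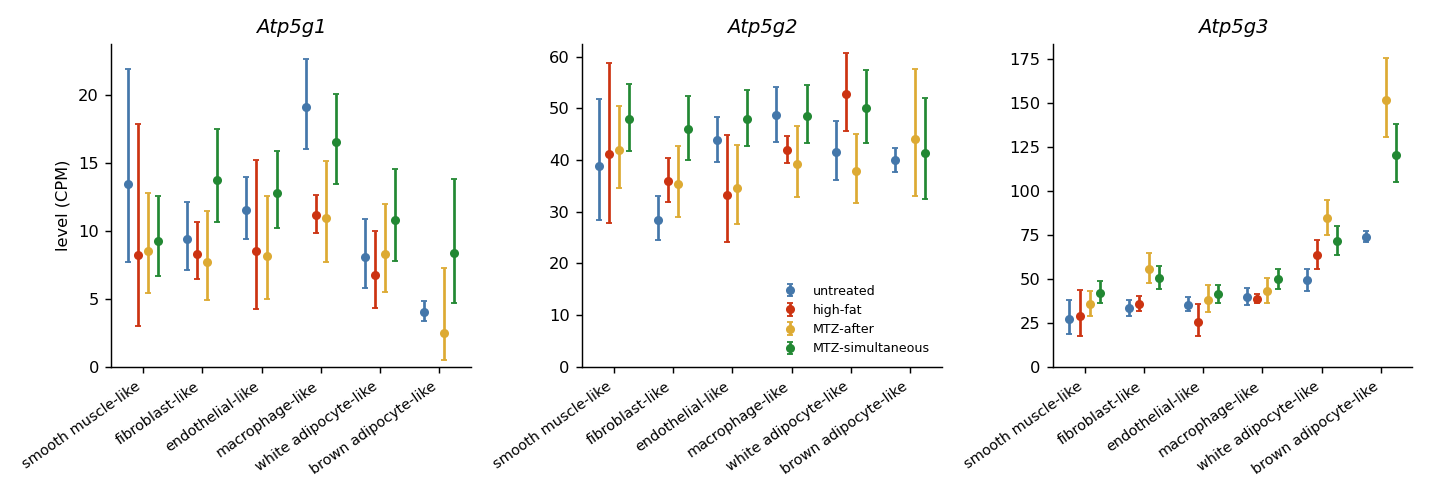
Each panel gives a subunit c gene's level (CPM) in 6 classes of nuclei, with 1 point per library and bars for the 95% Poisson counting interval; brown adipocyte-like nuclei of high-fat are left out because they number under 200. Atp5g3 reaches 152 CPM in brown adipocyte-like nuclei of MTZ-after, while Atp5g1 is at 2.49 to 8.39 CPM in that class. The 2.49 CPM, of MTZ-after, rests on 3 UMIs.

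Within classes of nuclei the direction was the same. The ratio was nearer to 1 than over all nuclei for high-fat against untreated, and about the same as over all nuclei for both MTZ comparisons. Classes were named from marker genes after clustering without the members, the complex II and IV lists and mitochondrially encoded genes. The geometric mean of the ratios in smooth muscle-, fibroblast-, endothelial- and macrophage-like nuclei was 0.754 (0.738 to 0.771) for high-fat against untreated, 1.12 (1.10 to 1.15) for MTZ-after against high-fat and 1.31 (1.28 to 1.33) for MTZ-simultaneous against high-fat. For high-fat against untreated, the 4 class ratios were 0.791, 0.766, 0.703 and 0.760 in the order named. For MTZ-after they were 1.07, 1.15, 1.18 and 1.09, and for MTZ-simultaneous 1.22, 1.37, 1.40 and 1.25. Whether classes differ was not tested.

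The endothelial-like class depended on the clustering. Cluster 2, led by Nrg1, Nfasc, Edn1 and Ddah1, came nearest to the endothelial markers but was left unnamed by the naming rule. In the order of the groups it held 249, 6968, 1621 and 417 nuclei, where the named class held 3118, 532, 1955 and 2315. Its member level was 0.656 times untreated in high-fat (0.612 to 0.705), 1.15 times high-fat in MTZ-after (1.10 to 1.19) and 1.25 times in MTZ-simultaneous (1.18 to 1.32). With another Leiden seed, libraries centred, a stricter filter or no doublets removed, the endothelial-like class of high-fat numbered 6227 to 9848 nuclei, and its ratios were 0.747 to 0.837, 1.03 to 1.13 and 1.15 to 1.27 in the 3 comparisons. Those lie nearer to 1 than the 0.703, 1.18 and 1.40 of the named class. The endothelial-like values and calls that follow refer to the named class, with 532 nuclei in high-fat.

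In high-fat against untreated, 26 of 63 members were called lower in macrophage-like nuclei, where 6.51% of genes were. The count was 31 in endothelial-like nuclei, where 13.3% of genes were called lower, and 19 in fibroblast-like nuclei, where 9.61% were. It was 3 in smooth muscle-like nuclei, where 10.3% of genes were called lower and 12 members held enough counts to be called. With TMM factors these counts were 30, 37, 26 and 5. No member was called higher in these 4 classes, where 18.2, 3.18, 14.8 and 9.71% of genes were in the order given. In endothelial-like nuclei a higher call needed enough counts in 532 high-fat nuclei, against 3118 in untreated, and was harder to reach than a lower one. In MTZ-after against high-fat, members called higher numbered 6 in smooth muscle-, 6 in fibroblast-, 6 in endothelial- and 4 in macrophage-like nuclei, where 14.5, 9.72, 16.1 and 6.54% of genes were. These percentages are over the 5824, 10243, 6777 and 11333 genes with enough counts to be called. Not all 63 members pass that bar in any class, so the member counts are not shares of 63. With TMM factors the members called higher numbered 6, 2, 4 and 1. Those above a ratio of 1 in macrophage-like nuclei fell from 43 to 31 of 62. Ndufa13 was called lower in macrophage-like nuclei of MTZ-after (9.81 against 15.7 CPM, 0.623, 0.422 to 0.892), where 6.6% of genes were. In smooth muscle-, fibroblast- and endothelial-like nuclei 0 members were called lower, where 2.95, 8.03 and 4.07% of genes were, and with TMM factors 1 was in endothelial-like nuclei. In MTZ-simultaneous, members called higher numbered 16, 31, 30 and 13 in the same class order, where 16.7, 12.2, 16.7 and 6.99% of genes were, and with TMM factors 20, 25, 26 and 6. None was called lower, where 2.61, 7.87, 1.81 and 6.23% of genes were. The minimum count applies to the larger value, so lower calls in both MTZ comparisons depend on the depth of high-fat. High-fat held 593 smooth muscle-like and 532 endothelial-like nuclei, fewer than either MTZ library. Lower calls were therefore harder to reach there than higher ones, which was not so in fibroblast- and macrophage-like nuclei. By ratio alone, 52 and 58 of 62 members lay above 1 there in MTZ-simultaneous.

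**Figure D3:**
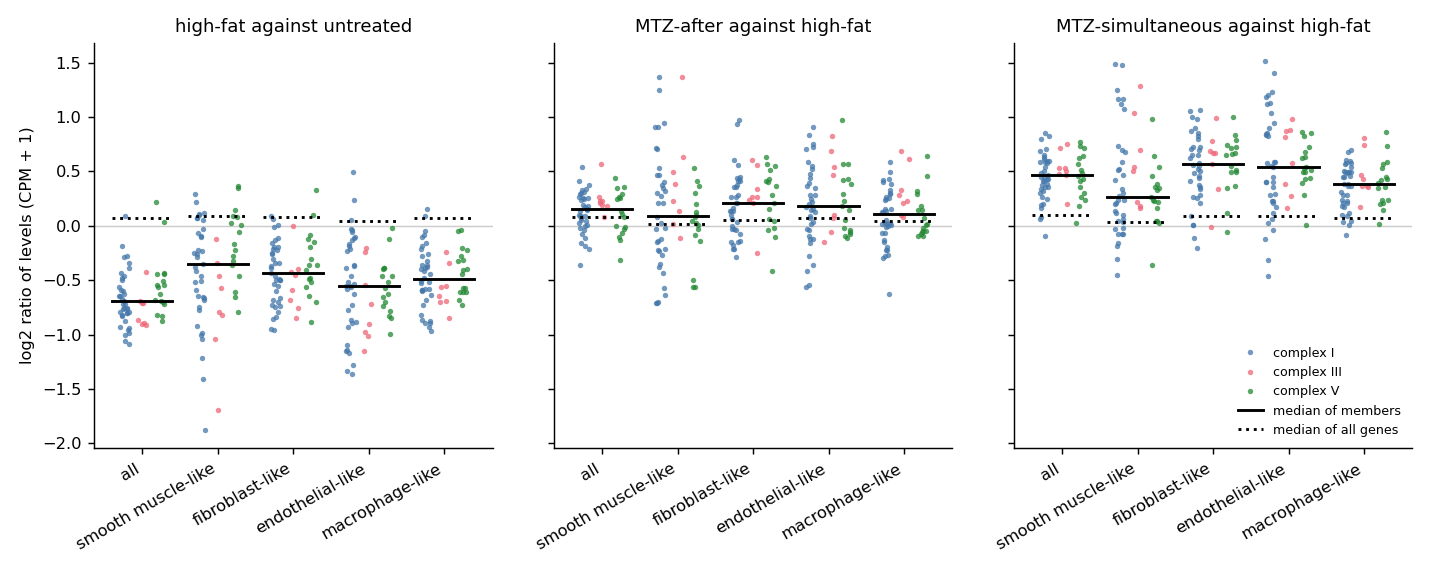
Each point is a member's log2 ratio of CPM plus 1 between a pair of libraries, over all kept nuclei and within 4 classes, coloured by complex name; solid lines are medians of members and dotted lines medians of all genes, both over genes with at least 10 UMIs in the pair. Members lie mostly below 0 in high-fat against untreated (median -0.69 over all nuclei) and mostly above 0 in MTZ-simultaneous against high-fat (median 0.47), with wide scatter in smooth muscle-like nuclei.

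Among macrophage-like nuclei, Ndufa13, Ndufa1 and Ndufb9 had the lowest ratios in high-fat against untreated by the bound nearest to 1. Ndufa13, a membrane-arm subunit, stood at 31.6 CPM in untreated and 15.7 in high-fat (0.497, 0.419 to 0.591). Ndufb9 stood at 36.2 CPM for untreated, 19.3 for high-fat, 16.3 for MTZ-after and 25.5 for MTZ-simultaneous. In the same nuclei Atp5k, Atp5h and Uqcrfs1 were highest in MTZ-simultaneous against high-fat (1.87, 1.69 and 1.82). Atp5h, of the peripheral stalk, stood at 28.5 CPM in high-fat and 47.9 in MTZ-simultaneous. Atp5j2, Ndufa4 and Uqcrq were highest in MTZ-after (1.58, 1.52 and 1.55).

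In endothelial-like nuclei Ndufa4 stood at 82.3 CPM for untreated, 37.9 for high-fat, 62.3 for MTZ-after and 69.3 for MTZ-simultaneous. High-fat was the lowest library there, as it was for Atp5a1 (83.3, 46.4, 91.7 and 85.3 CPM). Ndufb7 and Ndufb8 were also among the lowest in high-fat (0.362 and 0.375 times untreated), in the 532 nuclei that the class held in high-fat. Ndufv2 was at 1.70 times high-fat in MTZ-after (1.15 to 2.58). Ndufb7 and Ndufa5 were at 3.07 (1.67 to 6.27) and 2.88 times (1.47 to 6.44) in MTZ-simultaneous. Their intervals are wide, because high-fat held only 8.51 and 6.96 CPM of them in these few nuclei. Both Ndufb7 ratios rest on the same low high-fat value. In fibroblast-like nuclei Ndufb9, Ndufb8 and Atp5k were lowest in high-fat (0.504, 0.497 and 0.523). Ndufa3, Ndufc1 and Atp5g3 were highest there in MTZ-after (2.04, 1.998 and 1.57), and Atp5e, Ndufb10 and Ndufb11 in MTZ-simultaneous (2.04, 2.17 and 2.23). In smooth muscle-like nuclei Ndufs4 stood at 167 CPM for untreated, 116 for high-fat, 169 for MTZ-after and 137 for MTZ-simultaneous. High-fat was below the others, and against untreated its ratio was 0.698 (0.535 to 0.904). Ndufb3 and Ndufs7 were highest there in MTZ-after (2.46 and 2.81 times high-fat), and Ndufs7 and Ndufb5 in MTZ-simultaneous (3.07 and 3.04), with wide intervals such as 1.27 to 9.68 for Ndufs7 in the latter.

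A class could hold different clusters in different libraries. Cluster 0, led by Igkc, Spp1, St18 and Ms4a7, held 11489 of the 18336 macrophage-like nuclei of high-fat and 320 of 2452 in untreated. Cluster 10, led by Cemip, Grin2a and Mmp13, held 3334 of 4557 fibroblast-like nuclei of high-fat and 221 of 2622 in untreated. Ratios were therefore also taken within the 11 clusters with at least 200 nuclei in both libraries of a comparison. High-fat was below untreated in all 11 (0.567 to 0.864) and MTZ-simultaneous above high-fat in all 11 (1.20 to 1.54). MTZ-after was above high-fat in 9, and the interval held 1 in the other 2 (0.996 to 1.21 over all 11). In cluster 0 itself high-fat was at 0.567 times untreated (0.532 to 0.604), where the 320 untreated nuclei stood at 3475 CPM. In the macrophage-like clusters 3 and 11 untreated stood at 1936 and 2137 CPM, and the ratios were 0.864 and 0.833.

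**Figure D4:**
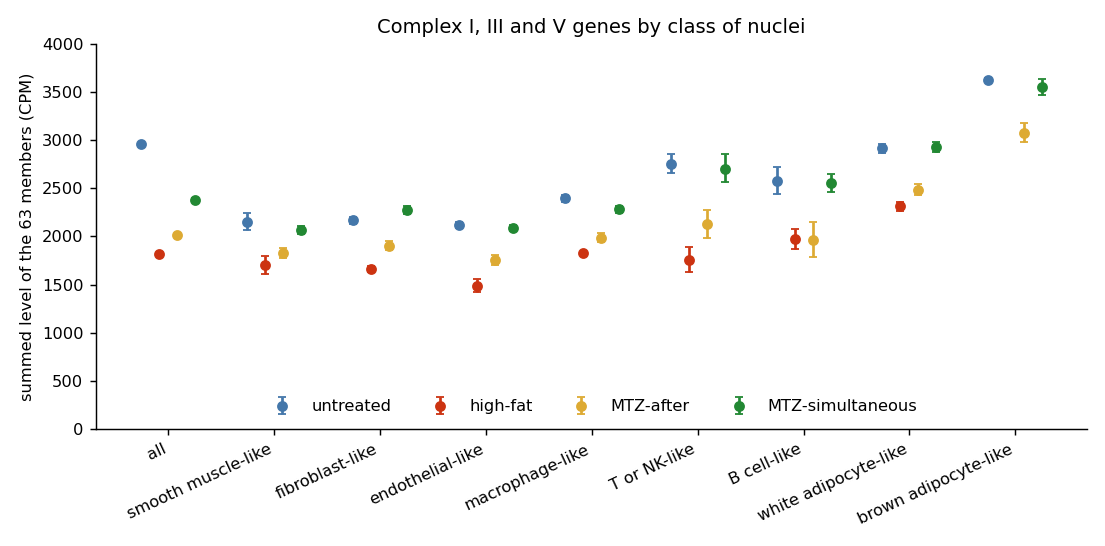
Points give the summed level of the 63 members (CPM) in all kept nuclei and in the classes named on the axis. There is 1 point per library with at least 200 nuclei of the class, and bars give the 95% Poisson counting interval. Some classes of at least 200 nuclei are not shown, such as mesothelial-like nuclei (2942 CPM in untreated). High-fat lies below untreated in every class shown that has both, and brown adipocyte-like nuclei lie above every other class at 3075 to 3623 CPM.

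Brown adipocyte-like nuclei had the highest summed level in each library where they numbered at least 200: 3623 CPM for untreated, 3075 for MTZ-after and 3552 for MTZ-simultaneous. White adipocyte-like nuclei came next in both MTZ libraries (2487 and 2928 CPM) and first in high-fat (2313). With another Leiden seed the class was larger and its levels were 3606 CPM for untreated, 3034 for high-fat, 2784 for MTZ-after and 3406 for MTZ-simultaneous. Endothelial-like nuclei were lowest in untreated (2118 CPM, 2088 to 2148) and high-fat (1489, 1424 to 1557). In untreated, fibroblast-, smooth muscle-, lymphatic endothelial- and endothelial-like nuclei had overlapping intervals, between 2118 and 2168 CPM. Of 62 members with a value, 54 were higher in brown adipocyte-like nuclei than in the median other class as a geometric mean over 3 libraries, and the median of these ratios was 1.42. The same share over all genes was not computed, so the count cannot be read as particular to the members. The class was also deep, with a median of 2953 UMIs per nucleus over the libraries together. Of these ratios, Atp5g3 (2.46), Ndufs3 (2.30) and Ndufs1 (2.13) were highest, and Atp5g1 (0.435), Ndufa2 (0.723) and Ndufb11 (0.749) lowest. In MTZ-after the class held only 3 UMIs of Atp5g1 and 6 of Ndufb11. The Ndufb11 ratio was 0.532 there, against 0.909 in untreated and 0.868 in MTZ-simultaneous. The subunit c genes were thus at both ends: Atp5g3 stood at 74.0, 152 and 121 CPM in brown adipocyte-like nuclei of the 3 libraries in that order, and Atp5g1 at 4.08, 2.49 and 8.39.

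The brown fat markers, like the members, were lowest in high-fat over all nuclei and in each of the 4 vascular classes. The 12 markers of brown adipocytes summed, over all nuclei, to 2938, 392, 766 and 968 CPM from untreated to MTZ-simultaneous as listed above, with 12, 11, 12 and 12 of them counted and Zic1 at 0 in high-fat. Ucp1 stood at 266, 25.4, 113 and 101 CPM. In macrophage-like nuclei the markers summed to 728, 357, 550 and 577 CPM, with Zic1 at 0 in every library. Ucp1 alone stood at 76.2, 21.1, 72.5 and 49.1 CPM there. Median depths of these nuclei were 1788, 904, 783 and 1292 UMIs. Of them, 30.1, 7.55, 13.1 and 14.1% held a UMI of Ucp1, Cidea, Elovl3 or Otop1. With all such nuclei left out, high-fat against untreated was 0.763 over all nuclei and 0.775 within the 4 classes, and MTZ-simultaneous against high-fat 1.28 and 1.32. Over all nuclei this removed 51.1% of untreated but only 8.97% of high-fat. The MTZ libraries lost 19.7% (after) and 20.8% (simultaneous). In untreated, 10152 of 20773 nuclei remained, with 23595260 of 64636178 UMIs. The part of this uneven removal, and of depth, in these ratios was not tested. In those remaining macrophage-like nuclei the marker sum was still 442 CPM in untreated and 270.1 in high-fat. It came from the other markers of the list, since nuclei with Ucp1, Cidea, Elovl3 or Otop1 were left out. Whether it is brown fat RNA or expression by the macrophage-like nuclei themselves was not tested. With brown adipocyte-like nuclei left out, high-fat against untreated was 0.743 over all nuclei, and 0.702 to 0.760 with the class taken from 3 other clusterings. In endothelial-like nuclei the markers summed to 398, 108, 321 and 243 CPM, with Elovl3, Otop1 and Zic1 at 0 in high-fat. The sums were 943, 412, 615 and 773 CPM in smooth muscle-like nuclei and 824, 351, 536 and 503 in fibroblast-like nuclei. The part of brown fat RNA in the remaining differences was not tested.

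**Figure D5:**
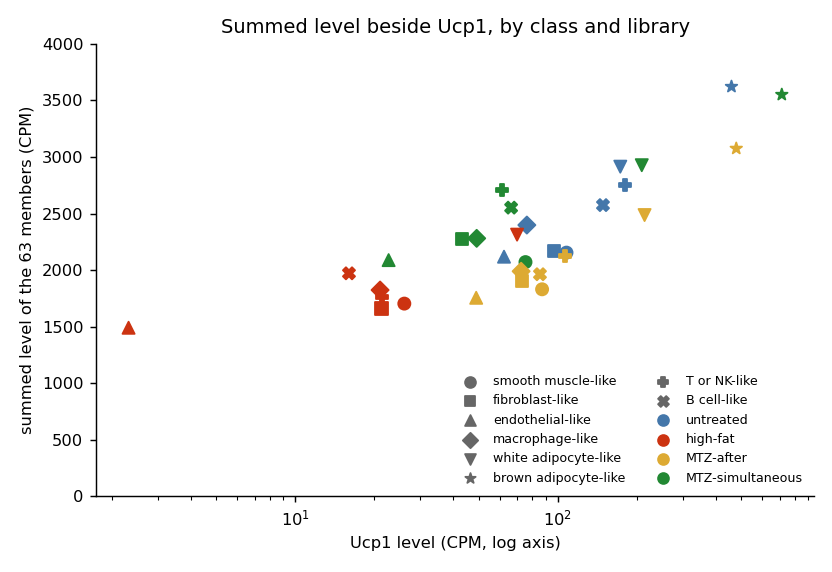
Each point is a class in a library, placed by its Ucp1 level (CPM, log axis) and the summed level of the 63 members (CPM), with shape for class and colour for library. Points share library and depth, so the plot is a description; endothelial-like nuclei of high-fat are lowest on both axes (2.32 CPM of Ucp1, 1489 CPM of members), and brown adipocyte-like nuclei have the highest member levels.

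Messages of cytosolic ribosomal proteins, which like many members are short and abundant, moved with the members in MTZ-simultaneous but not in high-fat over all nuclei. The 36 listed ribosomal protein genes summed to 3011 CPM for untreated, 3941 for high-fat, 3684 for MTZ-after and 5122 for MTZ-simultaneous. In macrophage-like nuclei they summed to 4608, 4235, 4284 and 5245 CPM. Their sum in MTZ-simultaneous was 1.24 times high-fat there, where the members' was 1.25. Their part in the members' difference was not tested.

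Other genes of oxidative metabolism differed in how far they followed. Over all genes, 14.2% were called lower and 17.5% higher in high-fat over all nuclei, and 6.51% and 18.2% in macrophage-like nuclei. The 16 nuclear genes of complex IV stood at 0.598 times untreated in high-fat over all nuclei (11 of 16 called lower) and at 0.661 in macrophage-like nuclei (8 of 16). The 4 genes of complex II, which feeds electrons from succinate into the chain, stood at 0.600 over all nuclei and 0.856 in macrophage-like nuclei, and at 1.07 in MTZ-simultaneous against high-fat. The 13 mitochondrially encoded genes stood at 0.844 over all nuclei and 0.866 in macrophage-like nuclei, with 1 called higher and 2 lower in each. The 23 assembly factors of complexes I, III and V stood at 0.672 (8 lower, 0 higher) and 0.928 (0 lower, 1 higher). The 16 genes of the tricarboxylic acid cycle and pyruvate dehydrogenase stood at 0.424 over all nuclei (15 lower, 0 higher) and 0.856 in macrophage-like nuclei, where 0 of 16 were called. The 13 regulators of mitochondrial biogenesis, among them Ppargc1a, which is also in the list of brown adipocyte markers, stood at 0.261 over all nuclei (7 lower, 0 higher) and 0.801 in macrophage-like nuclei (2 lower, 0 higher). The list of the ATP synthase inhibitor Atpif1, the ADP/ATP and phosphate carriers and cytochrome c did not follow the members over all nuclei: its 7 genes summed to 211 CPM for untreated and 209 for high-fat, at 0.988 times (0.963 to 1.01; 1 lower, 1 higher). In macrophage-like nuclei they stood at 0.886 (2 lower, 0 higher), and in fibroblast- and endothelial-like nuclei at 1.08 and 1.05. In MTZ-simultaneous against high-fat the list stood at 1.25 over all nuclei (0 lower, 1 higher).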

How the data were processed

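The authors deposited 1 filtered matrix of whole-number UMI counts per library. Cell Ranger 7.0.1 is named per the file headers, and STAR and mm10 per the submitters' processing notes; whether intronic reads were counted, and the strand setting, are not given in the sources used here. Members, lists and rules were chosen with earlier results of these data known.

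Nuclei with at least 300 genes and at most 10% mitochondrial counts were kept, and the highest 8% of Scrublet scores were removed per library as doublets, with nuclei tied at the threshold kept (7.01 to 7.66% removed). Log-normalised counts of 2000 variable genes gave 30 principal components and 25 Leiden clusters (scanpy 1.11.5, leidenalg 0.10.2, resolution 1, 20 neighbours), named from marker lists. For each class in each library, counts were added up and divided by the total to give CPM. Intervals are exact Poisson for CPM and exact conditional binomial for ratios; log2 ratios used a pseudocount of 1 CPM. The interval and call functions were tested on simulated counts. TMM factors came from edgeR 4.0.16 (R 4.3.3) as an alternative. Named members are those of fixed roles and the 3 highest and 3 lowest per comparison and class with at least 50 counts, by the bound nearest to 1; brown adipocyte-like nuclei of high-fat were under the minimum of 200 and not compared. Positions are from GENCODE vM21 (GRCm38, that is mm10), where 32235 of 32285 identifiers were found. Single-gene values of some members are not reported here.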

Additional observations from a re-analysis of the deposited data

How the results depend on the processing

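No alternative turned a direction: over all nuclei, within the 4 vascular classes and in each of the 4, every ratio stayed on its side of 1. Those listed left the counting interval. For all nuclei, high-fat against untreated was 0.560 with TMM factors, 0.763 without nuclei holding a brown fat UMI and 0.743 without brown adipocyte-like nuclei. MTZ-after against high-fat was 1.01, 1.09 and 1.09 under the same settings, and 1.09 with at least 500 genes and at most 5% mitochondrial counts. MTZ-simultaneous against high-fat was 1.20, 1.28 and 1.29, and 1.44 as a mean of per-nucleus levels. With the brown adipocyte-like class taken from Leiden seed 1, resolution 2 or centred libraries, an alternative chosen after seeing the data, leaving it out gave 0.760, 0.713 and 0.702 for high-fat against untreated, 1.06, 1.09 and 1.07 for MTZ-after and 1.27, 1.29 and 1.27 for MTZ-simultaneous. Within the 4 classes, high-fat against untreated was 0.709 (TMM), 0.664 (per-nucleus mean), 0.788 (stricter filter), 0.781 (no doublets removed), 0.775 (no brown fat UMI), 0.780 (Leiden seed 1), 0.716 (resolution 2) and 0.723 (libraries centred). MTZ-after was 1.08 (TMM), 1.08 (no doublets removed) and 1.09 (seed 1). MTZ-simultaneous was 1.27 (TMM), 1.44 (per-nucleus mean), 1.27 (stricter filter), 1.24 (no doublets removed), 1.25 (seed 1), 1.26 (resolution 2) and 1.25 (centred). The causes were not tested. At 2-fold, the calls over all nuclei fell from 44 to 4 lower in high-fat, from 1 to 0 higher in MTZ-after and from 21 to 0 higher in MTZ-simultaneous. Without a minimum count, smooth muscle-like calls in high-fat went from 3 to 22 lower and 0 to 1 higher; this set held 1243 member UMIs in high-fat, which limits single members there. No paired analysis was possible because each group has 1 library.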

Other observations

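Members differed by the length of their gene. The 32 members whose gene spans at most 7284 bp stood at 0.674 times untreated in macrophage-like nuclei of high-fat, and the 31 longer ones at 0.818. In MTZ-simultaneous against high-fat the values were 1.42 and 1.16 in macrophage-like nuclei and 1.49 and 1.22 over all nuclei. Over all nuclei of high-fat against untreated they were close together, at 0.624 and 0.607.

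Of the 63 members, 23 overlap another counted gene in the annotation, 22 of them on the other strand only; Ndufa13 shares its strand with Yjefn3. Ndufs1 overlaps Ino80dos over 14695 bp on the other strand. Levels of overlapping genes depend on how reads were assigned, which was not examined.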
